A study of Homo sapiens with 18 samples.

Results

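The human actin isoform genes are 6 genes, ACTB, ACTG1, ACTA2, ACTG2, ACTA1 and ACTC1. They were chosen by symbol and not by a cutoff on their values, but with earlier results of these data known. They made up 6 of the 61487 gene identifiers in the deposited count table. All 6 were among the 18544 genes that passed the filter on low counts and were tested, where ACTA1 and ACTC1 passed only through the groups in which they were high. Their messenger RNA was measured by poly(A) RNA sequencing in MSC-hTERT, a human mesenchymal stem cell line immortalized with telomerase (hTERT). The cells were labelled pMSCV, a retroviral vector that served here as the control, or with what they expressed: SRF, the serum response factor, or 1 of 4 fusions that join SRF to another protein, SRF-FOXO1, SRF-ICA1L, SRF-PDGFRB or SRF-RELA. The labels do not say which stretch of either protein a fusion keeps. There were 6 groups of 3 libraries, all from the same line and numbered 1, 2 and 3, and the growth medium contained serum and FGF-2. The labels name no clone and do not say whether the libraries of a group came from separate cultures, so p-values here measure the spread between these libraries, which may be technical.

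Actin is the protein of the thin filaments that shape cells and drive contraction. ACTB and ACTG1 encode the beta and gamma cytoplasmic actins, which are made in nearly all cells. ACTA2 and ACTG2 encode the alpha and gamma smooth muscle actins, and ACTA1 and ACTC1 encode the alpha actins of skeletal and cardiac muscle. SRF is a transcription factor that binds a sequence called the CArG box and is known for controlling actin genes, with a cofactor family, the MRTFs, that itself senses the pool of unassembled actin. In mesenchymal stromal cells ACTA2 is best known as a marker of myofibroblasts and pericytes.

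The genes lie on 6 chromosomes. In GRCh38 with GENCODE release 29, ACTB spans chr7:5527147-5563784, ACTG1 chr17:81509971-81523847, ACTA2 chr10:88935074-88991339, ACTA1 chr1:229431245-229434098 and ACTC1 chr15:34788095-34795726, each on the minus strand. ACTG2 spans chr2:73892314-73919865 on the plus strand. RefSeq promoter sequences of GRCh38.p14 were matched for 5 of the 6 genes, all except ACTB. They are shown because the protein expressed in all 5 constructs is, or is joined to, the factor that binds the CArG box. The box was searched as a pair of C, a run of 6 letters that are each A or T, and a pair of G, on both strands, and is its own reverse complement in that form. A looser form, counted apart, had 1 C or G among the 6 inner letters. Capitals mark boxes of either form. For ACTG1, ACTA2, ACTG2 and ACTA1 the stretch begins 250 bases before the RefSeq start site. It is drawn to 85 bases before it in ACTG1, 64 in ACTG2, 5 in ACTA1 and the last base before it in ACTA2. For ACTC1 the 30 bases around the box in full are shown, because the box lies in a GENCODE exon there. The ACTG1 box also runs into a GENCODE exon, which takes up the last 92 bases before the start site, and the second ACTG2 box reaches the edge of one that takes up the last 64.
ACTG1, chr17:81512884-81513049, minus strand: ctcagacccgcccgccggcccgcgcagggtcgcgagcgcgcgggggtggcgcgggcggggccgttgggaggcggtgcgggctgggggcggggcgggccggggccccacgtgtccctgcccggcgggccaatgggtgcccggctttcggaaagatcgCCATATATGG
ACTA2, chr10:88952774-88953023, minus strand: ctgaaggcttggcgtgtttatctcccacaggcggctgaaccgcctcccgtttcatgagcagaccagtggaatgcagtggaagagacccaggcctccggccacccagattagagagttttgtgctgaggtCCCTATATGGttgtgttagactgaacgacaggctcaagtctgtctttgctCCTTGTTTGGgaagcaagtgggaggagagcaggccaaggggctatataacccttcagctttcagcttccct
ACTG2, chr2:73892758-73892944, plus strand: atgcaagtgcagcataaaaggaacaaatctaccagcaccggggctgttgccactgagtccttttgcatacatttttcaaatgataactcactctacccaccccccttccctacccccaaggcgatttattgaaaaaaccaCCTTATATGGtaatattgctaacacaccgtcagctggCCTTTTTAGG
ACTA1, chr1:229434099-229434344, minus strand: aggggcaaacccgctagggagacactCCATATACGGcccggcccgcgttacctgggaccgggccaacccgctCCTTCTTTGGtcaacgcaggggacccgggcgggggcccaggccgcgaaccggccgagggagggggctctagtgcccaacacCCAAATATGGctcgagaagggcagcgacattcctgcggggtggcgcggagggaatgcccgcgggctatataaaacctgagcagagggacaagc
ACTC1, chr15:34795639-34795668, minus strand: gcgaaggggaCCAAATAAGGcaaggtggca

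In those windows ACTG2 held 2 CArG boxes, beginning 110 and 73 bases before the start site. ACTG1, ACTA1 and ACTC1 each held 1, beginning 94, 97 and 109 bases before it. ACTA2 held no box of the full form and 2 of the looser form, beginning 121 and 71 bases before the start of its principal transcript. ACTA1 held 2 further looser boxes and ACTC1 held 3. Of 35116 RefSeq windows of 300 bases, from 250 before to 50 after a start site, 1.29% held a full box and 6.94% a looser one. A match in these windows is a description of letters and says nothing of binding. The other RefSeq start sites of ACTA2 and ACTC1 had no box of either form.

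**Figure D1:**
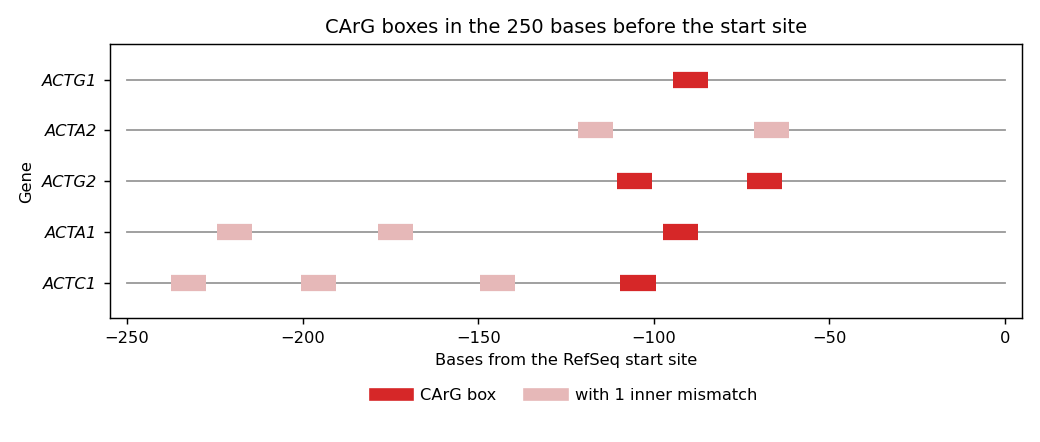
Positions of CArG boxes (red) and boxes with 1 inner mismatch (pink) along the 250 bases before the RefSeq start site of 5 actin genes (x axis, bases from the start site). ACTG2 holds 2 full boxes, ACTG1, ACTA1 and ACTC1 hold 1 each, and ACTA2 holds 2 of the looser form only.

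The libraries held between 19362319 and 29806771 counts. SRF itself, whose reads from the construct and from the cell's own gene cannot be told apart, had between 57.3 and 64.4 CPM (the count over the library's total, scaled to an equal total) in pMSCV, 678 to 1120 in SRF and 151 to 337 in the 4 fusions. Every construct library lay above every pMSCV library. The stromal markers of the line were present in all 18 libraries, with a summed level of 16800 to 42100 CPM over 8 genes. Of 5 blood cell markers CD3E had 0 counts in all 18 libraries, while PTPRC, CD14 and CD34 had counts in each, with CD34 the highest at up to 3.47 CPM. The 5 summed to 0.92 to 1.94 CPM in pMSCV and to 1.18 to 4.09 in the constructs, and their part in the results was not tested. Over all libraries 4 endothelial markers summed to 7.16 to 31.4 CPM, with PECAM1 the highest at up to 28. A list of 4 epithelial markers summed to 2.64 to 5.84 CPM. The part of these lists was not tested either. For skeletal and cardiac muscle, MYOG, MYF5 and MYH7 had 0 counts in all 18 libraries, MYOD1 had at most 1 count in any, and the 7 striated muscle markers summed to between 0.806 and 1.8 CPM. The 5 smooth muscle markers (MYH11, DES, MYOCD, CNN1 and LMOD1) summed to 7.9 to 23 CPM in the pMSCV libraries and to 33.9 to 47.8 with SRF. SRF-FOXO1 libraries ranged from 35.6 to 187, those of SRF-ICA1L from 35.8 to 96.3, those of SRF-RELA from 35.8 to 138 and those of SRF-PDGFRB from 16.1 to 50.7. CNN1 and LMOD1 made up most of these sums, and the other members did not all follow. MYH11 had 0.516 to 1.21 CPM in pMSCV, 0.705 to 0.918 in SRF and 0.752 to 1.53 in SRF-ICA1L. It reached 14.6 in SRF-FOXO1 and 22.5 in SRF-RELA, each in library 2. DES had at most 1.1 CPM, and MYOCD was highest in SRF-PDGFRB library 2, at 14 CPM. In such bulk samples a larger share of cells with a gene and more RNA of it per cell cannot be told apart. The libraries numbered 2 stood apart in immediate early genes: FOS ranged from 12.1 to 34.4 CPM in them, against 449 to 1110 in those numbered 1 and 381 to 631 in those numbered 3. The labels do not say what the number stands for.

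The cytoplasmic actins dominated the actin counts in all groups. Per kilobase of the principal transcript, ACTB measured 1736 ± 52.5 CPM in pMSCV (SD, n = 3) and ACTG1 1420 ± 85.6, against 12.9 ± 2.66 for ACTA2 and 4.47 ± 3.26 for ACTG2. On the same scale ACTA1 measured 0.0389 ± 0.0483, and ACTC1 had 0 counts. In SRF-FOXO1 the order on that scale was ACTB at 3056 ± 507, ACTG1 at 1648 ± 40.3, ACTG2 at 320.6 ± 63.5, ACTA2 at 137 ± 108, ACTA1 at 28.2 ± 39.6 and ACTC1 at 13.3 ± 15.9. ACTG2 thus stood below ACTA2 on average in pMSCV and above it in SRF-FOXO1, and in SRF-FOXO1 their ranges did not overlap (259 to 386 against 51.6 to 258). The ranges of ACTA2 and ACTA1 (1.91 to 73.8) overlapped there, as did those of ACTA1 and ACTC1 (0.609 to 31.1), while those of ACTA2 and ACTC1 did not. The actin genes together took 0.526% to 1.15% of all counts, with the highest value in SRF-FOXO1 library 2.

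ACTB was measured at 3246, 3445 and 3313 CPM in pMSCV libraries 1, 2 and 3, and at 5297, 6994 and 5321 CPM in SRF-FOXO1. All 3 SRF-FOXO1 libraries lay above all pMSCV libraries, and library 2 was the highest. The fitted change was 0.90 on the log2 scale (SE 0.17; adjusted p = 0.0218, edgeR quasi-likelihood test). In SRF-ICA1L the gene stood at 4282, 4143 and 4659 CPM, above every pMSCV library, with a log2 fold change of 0.50 that did not pass (adjusted p = 0.27). SRF-RELA libraries were at 3766, 4421 and 3996 CPM and SRF-PDGFRB libraries at 3591, 3451 and 3586 CPM. Both groups lay just above the pMSCV range, and neither passed the test (log2 fold changes 0.34 and 0.08). SRF libraries spread widest, at 2962, 2714 and 4203 CPM, on both sides of pMSCV.

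ACTG1 moved least of the 6 genes. Its group means ran from 2566 ± 247 CPM in SRF through 2737 ± 125 in SRF-PDGFRB, 2743 ± 103 in SRF-RELA, 2855 ± 172 in pMSCV and 2978 ± 157 in SRF-ICA1L to 3315 ± 81.0 in SRF-FOXO1. In that order the ranges of neighbouring groups overlapped up to SRF-ICA1L. SRF-FOXO1, at 3379, 3341 and 3224 CPM, did not overlap pMSCV at 2665, 2898 and 3001 CPM. Its log2 fold change of 0.30 (95% interval 0.07 to 0.52) did not pass the test over all genes (adjusted p = 0.21). The ratio of ACTB to ACTG1 counts was 1.10 to 1.22 in pMSCV and 1.57 to 2.09 in SRF-FOXO1, with no overlap. It was 1.38 to 1.55 in SRF-ICA1L, 1.33 to 1.68 in SRF-RELA, 1.23 to 1.39 in SRF-PDGFRB and 1.09 to 1.48 in SRF. Only the SRF range reached into that of pMSCV. These transcripts are close in sequence, and 1.12% of the 50-base windows of ACTB and 0.51% of those of ACTG1 occurred in another actin transcript.

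ACTG2 showed the clearest separation of the groups. It was measured at 1.52, 7.61 and 11.4 CPM in pMSCV (43, 177 and 329 counts) and at 396, 590 and 485 CPM in SRF-FOXO1. SRF-ICA1L libraries were at 165, 200.5 and 211 CPM, and SRF-RELA libraries at 140, 384 and 211 CPM. All 9 libraries of these fusions lay above every library of pMSCV, SRF and SRF-PDGFRB. The log2 fold change against pMSCV was 6.26 in SRF-FOXO1 (SE 0.89; adjusted p = 0.00625), 4.93 in SRF-ICA1L (SE 0.84; adjusted p = 0.014) and 5.24 in SRF-RELA (SE 0.85; adjusted p = 0.0243). SRF libraries, at 2.52, 7.08 and 27.4 CPM, overlapped pMSCV, with a log2 fold change of 0.89 that was -0.48 without SRF library 3. SRF-PDGFRB libraries, at 11.1, 24.4 and 30.7 CPM, also did, by 1 library, and their log2 fold change of 1.69 did not pass (adjusted p = 1). Within pMSCV the gene varied by 7.48 times between libraries, and within SRF by 10.9 times, against 1.49 times in SRF-FOXO1.

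ACTA2 was measured at 15.4, 15.2 and 21.5 CPM in pMSCV and at 44.0, 35.9 and 61.3 CPM in SRF. The groups did not overlap, but the log2 fold change of 1.47 (95% interval 0.26 to 2.69) did not pass after adjustment (adjusted p = 0.912). It reached 69.6, 348 and 135.5 CPM in SRF-FOXO1 and rose by a log2 fold change of 3.53 (SE 0.61; adjusted p = 0.0187). In SRF-ICA1L it stood at 66.7, 136 and 69.0 CPM and in SRF-RELA at 49.3, 140 and 55.5 CPM. The libraries numbered 2 were the highest of their group in all 3 of these fusions, and every library of them was above pMSCV. The change was 2.51 in SRF-ICA1L (adjusted p = 0.0876, and 0.0122 with the replicate number as a block) and 2.31 in SRF-RELA (adjusted p = 0.224, and 0.0558 with the block). SRF-PDGFRB, at 17.3, 31.4 and 29.9 CPM, overlapped pMSCV. The overlapping antisense gene ACTA2-AS1 had 0.258 to 4.5 CPM in all libraries. Whether counting used strand is not given in the sources used here, so a part of its reads may belong to ACTA2 or the reverse.

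The striated muscle actins were close to absent outside SRF-FOXO1 and SRF-RELA. ACTA1 had 1, 0 and 4 counts in pMSCV, 5, 1 and 1 in SRF and 4, 1 and 3 in SRF-PDGFRB. SRF-ICA1L libraries had 9, 16 and 6. It had 85, 2811 and 287 counts in SRF-FOXO1 and 183, 3264 and 473 in SRF-RELA, or 2.85, 110 and 13.3 CPM and 8.13, 114 and 19.8 CPM. Library 2 was the highest in both groups, and the lowest SRF-FOXO1 library still had more counts than any library of the other 4 groups. Against pMSCV the log2 fold change was 9.45 in SRF-FOXO1 (SE 1.75; adjusted p = 0.0226) and 9.56 in SRF-RELA (SE 1.75; adjusted p = 0.0456). Pooled over libraries, with counting error only, the level was 665 times that of pMSCV in SRF-FOXO1 (95% interval 285 to 2050) and 841 times in SRF-RELA (360 to 2590). The SRF-ICA1L libraries were above all pMSCV libraries, at 6.39 times the pooled level (2.46 to 21.0), and did not pass the test (adjusted p = 0.764).

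ACTC1 had 0 counts in all 3 pMSCV libraries, which allows up to 0.129 CPM in the shallowest of them. It had 2, 0 and 2 counts in SRF and 1, 1 and 4 in SRF-PDGFRB. SRF-FOXO1 libraries held 67, 2938 and 644 counts (2.25, 115 and 29.8 CPM), SRF-RELA libraries 41, 1218 and 218 (1.82, 42.7 and 9.11 CPM) and SRF-ICA1L libraries 5, 18 and 24 (0.198, 0.625 and 1.00 CPM). Taken against the upper limit of 0.129 CPM (3 counts in a library), the SRF-FOXO1 mean was at least 380-fold higher, with at least 139-fold higher in SRF-RELA and at least 4.72-fold higher in SRF-ICA1L. With the libraries numbered 2 left out of the fusion means these limits were 124, 42.4 and 4.65 times. For these the upper limit of 0.129 CPM was kept, although it comes from pMSCV library 2. The adjusted p was 0.031 in SRF-FOXO1, 0.133 in SRF-RELA and 0.561 in SRF-ICA1L. With the replicate block SRF-RELA passed as well, at 0.00121, and SRF-ICA1L had 0.0928. No 50-base window of the ACTC1, ACTA2 or ACTG2 transcript, and 0.763% of those of ACTA1, occurred in another of the 6 transcripts. The read length is not given in the sources used here.

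**Figure D2:**
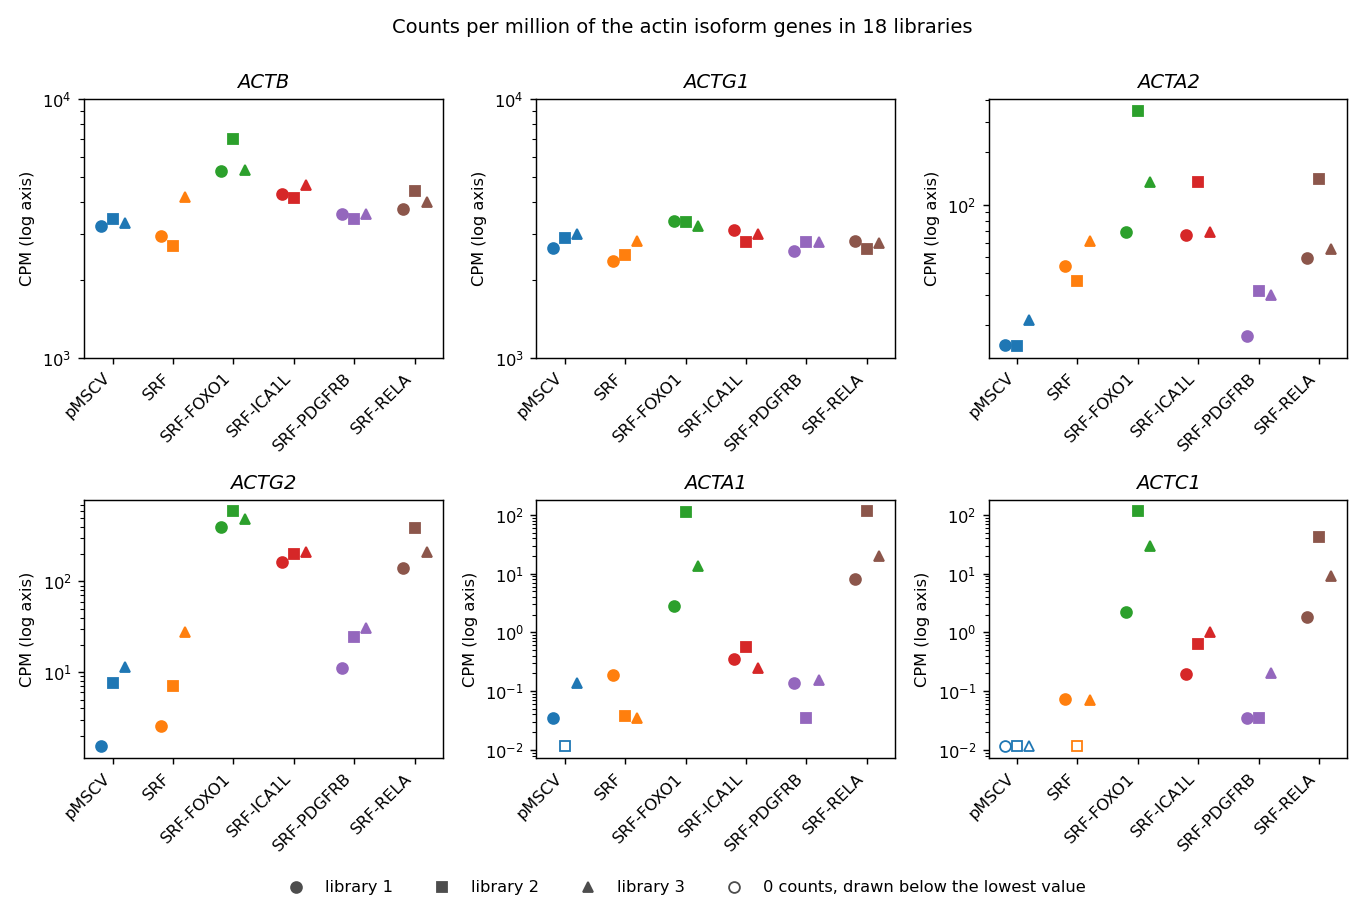
Level of each actin gene in the 18 libraries (y axis, CPM on a log axis; x axis, group; symbols give the library number, and open symbols 0 counts). ACTG2 of SRF-RELA, SRF-ICA1L and SRF-FOXO1 lies at 140 CPM or more in each library, and ACTA1 and ACTC1 are highest in the libraries numbered 2 of SRF-FOXO1 and SRF-RELA.

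In all, 8 of the 30 tests of the 6 genes in the 5 constructs against pMSCV passed, all higher in the construct. These comparisons share the pMSCV libraries. The groups did not overlap in 19, but overlap was not counted over all genes, so this number cannot be set beside theirs. ACTA1 and ACTC1, here and in the comparisons below, passed the count filter only through the groups in which they were high. In SRF-FOXO1 5 genes passed (all but ACTG1), where 0.928% of all genes did. SRF-RELA had 2 (ACTG2 and ACTA1; 0.183% of all genes), SRF-ICA1L had 1 (ACTG2; 0.469% of all genes), and SRF (0.027% of all genes) and SRF-PDGFRB (0.0324% of all genes) had none. In those last 2 groups edgeR gave p under 0.05 before adjustment to 1 gene in SRF (ACTA2) and 1 in SRF-PDGFRB (ACTG2). Of all genes 5.38% and 2.1% had such a p, in that order. DESeq2's Wald test called 0 of the 6 genes in each group. Its calls over all genes were not counted, here or in the comparisons below. With the replicate block 10 of 30 passed, with ACTA2 in SRF-ICA1L and ACTC1 in SRF-RELA added, while 7.03% of all genes passed in SRF-FOXO1. The share of all genes was 4.66% for SRF-ICA1L, 0.971% for SRF-RELA, 0.243% for SRF and 0.178% for SRF-PDGFRB. Leaving out any 1 pMSCV library, or SRF-FOXO1 library 2, ended the SRF-FOXO1 calls of ACTB, ACTA2, ACTA1 and ACTC1 (adjusted p 0.0655 to 0.16). That of ACTG2 was lost only without pMSCV library 1 (0.0623). The ACTG2 call in SRF-ICA1L was lost without any 1 pMSCV library (0.0651 to 0.0886). In SRF-RELA both calls were lost without any 1 pMSCV library or SRF-RELA library 2, and that of ACTA1 also without SRF-RELA library 3 (0.0619 to 0.318).

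**Figure D3:**
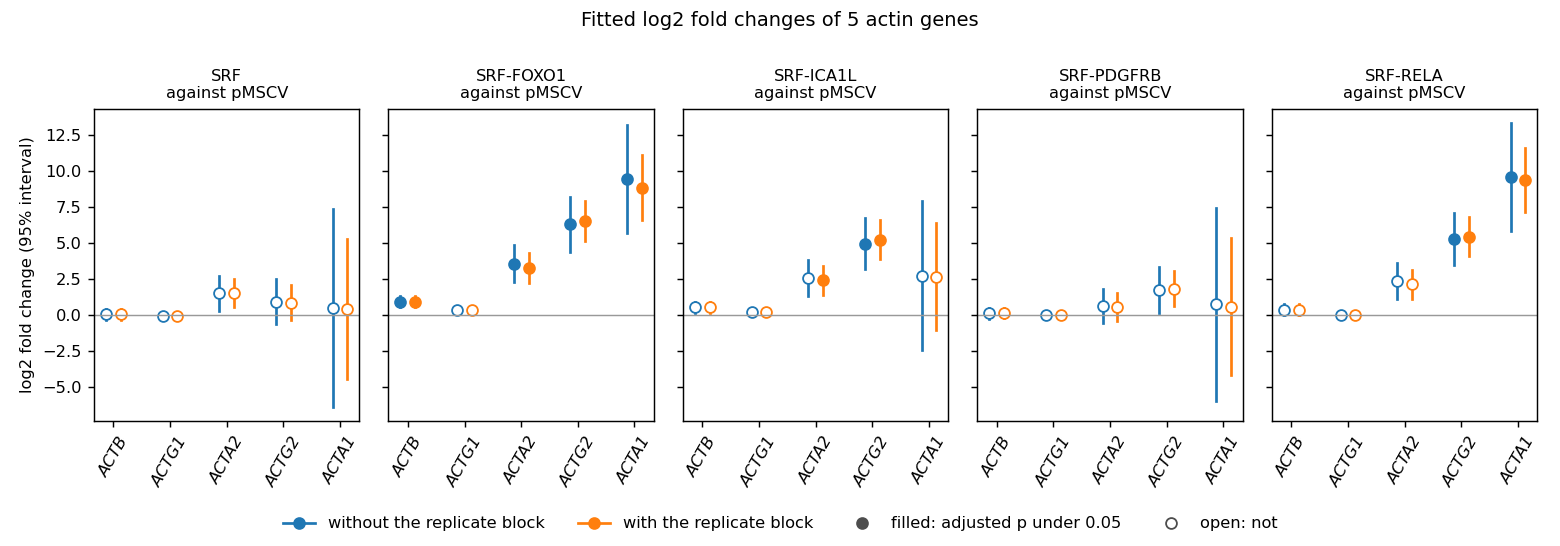
Fitted log2 fold change with its 95% interval (y axis) of 5 actin genes (x axis) in each construct against pMSCV, without (blue) and with (orange) the replicate number as a block, filled where the adjusted p is under 0.05. ACTC1 is not drawn because pMSCV had 0 counts. ACTG2 is filled in SRF-RELA (5.24), SRF-ICA1L (4.93) and SRF-FOXO1 (6.26), and no gene is filled in SRF or SRF-PDGFRB.

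Because the libraries numbered 2 held most of the ACTA1 and ACTC1 counts, the tests were repeated on the 12 libraries numbered 1 and 3. ACTA1 then had a log2 fold change against pMSCV of 6.47 in SRF-FOXO1 (adjusted p = 0.0709, and 0.00248 with the block) and 7.27 in SRF-RELA (0.0482, and 0.00107). ACTC1 kept counts of 67 and 644 in SRF-FOXO1 and 41 and 218 in SRF-RELA, against 0 and 0 in pMSCV, with adjusted p of 0.306 and 1 (0.000571 and 0.0021 with the block). The ACTB change in SRF-FOXO1 fell from 0.90 to 0.72 and was no longer called (adjusted p = 0.344, and 0.0865 with the block). The ACTA2 change fell from 3.53 to 2.51 in SRF-FOXO1 (adjusted p = 0.0451). ACTG2 had 6.13 in SRF-FOXO1, 4.95 in SRF-ICA1L and 4.80 in SRF-RELA, with adjusted p of 0.24, 0.33 and 0.758, and 0.00693, 0.0126 and 0.028 with the block. With the block, ACTA2 in the SRF group also passed against pMSCV in these 12 libraries, at 1.56 (adjusted p = 0.0376), where 0.113% of all genes did. ACTA2 was there also called lower in SRF-PDGFRB than in SRF, at -1.25 (adjusted p = 0.0283, and 0.398 without the block), where 0.899% of all genes passed. It was the 1 lower call among the 7 against SRF in that fit. What part the state of the libraries numbered 2 has in the levels of these genes was not tested.

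Muscle actins were a small part of the actin message in every library. ACTA2, ACTG2, ACTA1 and ACTC1 together made up 0.285%, 0.358% and 0.520% of all actin counts in pMSCV libraries 1, 2 and 3. They made up 5.15%, 10.1% and 7.21% in SRF-FOXO1, 2.93%, 8.81% and 4.18% in SRF-RELA and 3.04%, 4.63% and 3.54% in SRF-ICA1L. The 9 values of these fusions lay above all others. SRF libraries had 0.872%, 0.818% and 1.25%, above every pMSCV library, and SRF-PDGFRB libraries 0.459%, 0.885% and 0.943%, which overlapped pMSCV. ACTG2 changed the order within this share. It was 9.0% to 34.5% of the muscle actin counts in pMSCV and 5.39% to 30.9% in SRF, where ACTA2 held nearly all the rest. It was 50.8% to 84.1% in SRF-FOXO1, 59.4% to 75.0% in SRF-ICA1L and 56.3% to 71.4% in SRF-RELA, and 38.8% to 50.4% in SRF-PDGFRB, so that SRF-PDGFRB stood between these groups. ACTA1 and ACTC1 together were 1.08%, 19.4% and 6.49% of muscle actin counts in SRF-FOXO1 and 5.0%, 23.1% and 9.78% in SRF-RELA, but at most 0.445% in SRF-ICA1L. As shares of a total, these values can move when any of the genes moves, and no test was made on them. The 33 actin pseudogenes in the table, of which 22 had a count, summed to at most 2.34 CPM in a library.

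**Figure D4:**
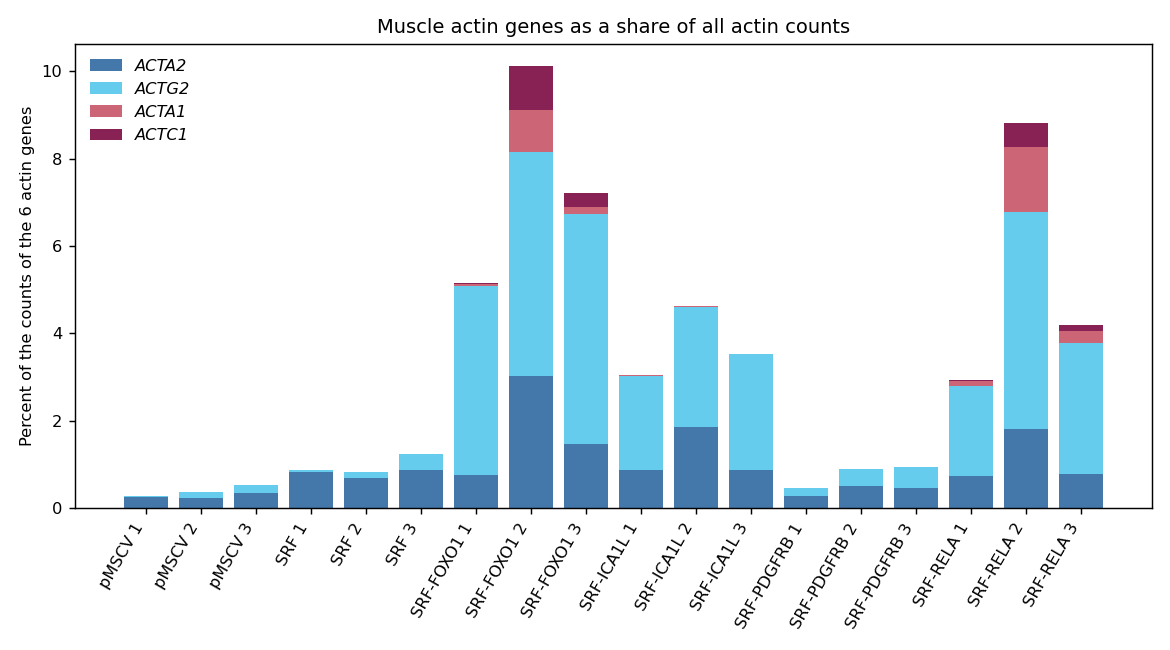
Share of the counts of the 6 actin genes (y axis, percent) taken by ACTA2, ACTG2, ACTA1 and ACTC1 in each library (x axis, stacked bars; the rest is ACTB and ACTG1). The bars reach 10.1% in SRF-FOXO1 library 2 and reach at most 1.25% in pMSCV, SRF and SRF-PDGFRB.

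The fusions were next set against SRF alone. SRF reads were higher in the SRF group than in the fusions, so in this comparison the joined protein, the stretch of SRF that is kept and the level of the construct cannot be told apart. In 24 tests 7 passed, all higher in the fusion. The groups did not overlap in 14, again with no share of all genes to set beside it. In SRF-FOXO1 4 genes passed, where 1.36% of all genes did: ACTB (log2 fold change 0.89; adjusted p = 0.0182), ACTG2 (5.37; 0.00907), ACTA1 (8.98; 0.0186) and ACTC1 (9.95; 0.0285). SRF-RELA passed for ACTG2 (4.35; 0.0357) and ACTA1 (9.09; 0.0357), where 0.388% of all genes did. SRF-ICA1L passed for ACTG2 (4.04; 0.0297), where 0.782% did. SRF-PDGFRB passed for none (0.146% of all genes). In that comparison edgeR gave 0 of 6 genes p under 0.05 before adjustment, against 12% of all genes, and DESeq2's Wald test called 0. There its ACTA2 libraries, at 17.3 to 31.4 CPM, lay below those of SRF at 35.9 to 61.3 CPM, with a log2 fold change of -0.88 (95% interval -2.08 to 0.31). ACTA2 itself did not pass in any fusion against SRF without the block: its log2 fold change was 2.06 in SRF-FOXO1 (adjusted p = 0.0959), 1.04 in SRF-ICA1L and 0.83 in SRF-RELA. With the replicate block ACTC1 in SRF-RELA passed too (log2 fold change 8.29; adjusted p = 0.00168), where 1.73% of all genes passed, 4.73% in SRF-ICA1L and 2.34% in SRF-PDGFRB. For SRF-FOXO1, where 7.23% of all genes passed with the block, ACTA2 and ACTG1 were called with it (1.74 and 0.42; adjusted p = 0.0361 and 0.0292), but the number does not meet the limit for pairing there. Leaving out SRF library 2 ended all 7 calls (adjusted p 0.0681 to 0.193), and SRF library 1 all except ACTG2 in SRF-FOXO1 (0.0864 to 0.144). Without SRF-FOXO1 library 2 those of ACTB, ACTA1 and ACTC1 ended (0.0583 to 0.087), and without SRF library 3 those of ACTC1 in SRF-FOXO1 (0.0514) and ACTA1 in SRF-RELA (0.215). The SRF-ICA1L call was lost without any 1 of its own libraries (0.0509 to 0.0981), both SRF-RELA calls without its library 2 (0.113 and 0.15), and ACTG2 there without its library 3 (0.0728). In turn ACTA2 in SRF-FOXO1 passed without its library 1 (0.0263) and ACTG1 without SRF library 3 (0.0212).

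Set against each other, the fusions differed most between SRF-FOXO1 and SRF-PDGFRB. In that comparison 5 of 6 genes passed, where 0.717% of all genes did: the log2 difference was 0.82 for ACTB (adjusted p = 0.037), 2.94 for ACTA2 (0.0361), 4.58 for ACTG2 (0.0199), 8.74 for ACTA1 (0.0258) and 9.34 for ACTC1 (0.0416). These were 5 of the 36 tests between fusions, and leaving out any 1 SRF-PDGFRB library, or SRF-FOXO1 library 2, ended all 5 (adjusted p 0.0647 to 0.191), and SRF-FOXO1 library 3 that of ACTC1 (0.0591). The other pairs had no call: SRF-FOXO1 against SRF-ICA1L (0.027% of all genes passed), SRF-FOXO1 against SRF-RELA (0.00539%), SRF-ICA1L against SRF-PDGFRB (0.82%), SRF-ICA1L against SRF-RELA (0.0108%) and SRF-PDGFRB against SRF-RELA (0.162%). In that order edgeR gave p under 0.05 before adjustment to 3, 3, 4, 2 and 4 of the 6 genes. Of all genes 6.07%, 10.4%, 11.7%, 3.06% and 3.87% had such a p. DESeq2's Wald test called 2, 0, 1, 1 and 3 of the 6 genes, with no share of all genes to set beside these counts. In SRF-PDGFRB against SRF-RELA the adjusted p of ACTA1 was 0.0501, and 0.0347 without SRF-RELA library 1.

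With the replicate block 13 of the 36 passed. SRF-FOXO1 had the same 5 genes above SRF-PDGFRB (4.35% of all genes passed). ACTA1 and ACTC1 were above SRF-ICA1L in SRF-FOXO1, by 6.18 and 5.85 (adjusted p = 0.00466 and 0.00375; 0.911% of all genes). ACTA1 was also above SRF-ICA1L in SRF-RELA, by a log2 difference of -6.69 as SRF-ICA1L minus SRF-RELA (adjusted p = 0.0171; 0.0162% of all genes). ACTA2 and ACTG2 were above SRF-PDGFRB in SRF-ICA1L, by 1.88 and 3.41 (adjusted p = 0.0333 and 0.00441; 4.76% of all genes). ACTG2, ACTA1 and ACTC1 were below SRF-RELA in SRF-PDGFRB, by -3.61, -8.79 and -7.74 (adjusted p = 0.0077, 0.000803 and 0.0023; 0.847% of all genes). SRF-FOXO1 and SRF-RELA had no call between them (0.167% of all genes), where the interval of ACTA1 without the block ran from -2.24 to 2.02 and that of ACTG2 from -0.48 to 2.53. For ACTG2 in SRF-ICA1L against SRF-RELA the interval ran from -1.80 to 1.19. The ACTA1 counts of SRF-ICA1L, at most 16, did not overlap those of SRF-FOXO1 or SRF-RELA, at least 85 and 183.

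The genes whose products work with actin were read from 6 lists. Of 13 smooth muscle thin filament and myosin partners, 12 were tested. LMOD1, which nucleates filaments in smooth muscle, and SYNPO2, an actin-binding protein of the contractile apparatus, rose in SRF-FOXO1 against pMSCV (log2 fold changes 3.69 and 2.24; adjusted p = 0.0212 and 0.041), and LMOD1 rose in SRF-ICA1L (3.20; 0.0454). LMOD1 had 2.34, 5.97 and 2.63 CPM in pMSCV and 14.4, 76.3 and 38.5 CPM in SRF-FOXO1, with library 2 the highest. With the replicate block 8 of the 12 rose in SRF-FOXO1, 4 in SRF-RELA, 7 in SRF-ICA1L and 1 (LMOD1) in SRF, with none lower. Of all genes 7.03%, 0.971%, 4.66% and 0.243% passed in those comparisons, in that order. CNN1, calponin of smooth muscle, was among them (log2 fold change 2.50 with the block in SRF-FOXO1; adjusted p = 0.000179). The list's median log2 fold change was 1.34 with SRF-FOXO1, 0.89 with SRF-ICA1L, 0.77 with SRF-RELA, 0.31 with SRF-PDGFRB and 0.21 with SRF, where the median over all genes tested lay between -0.01 and 0.01. These are counts of a list whose members were known to move in these data, and they add no independent support.

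Of 21 striated muscle partners 6 were tested, and only TNNC1, troponin C of slow and cardiac muscle, rose. It had 3, 3 and 2 counts in pMSCV and 9, 36 and 30 in SRF-FOXO1 (log2 fold change 3.38; adjusted p = 0.0443). Outside SRF-FOXO1 it reached 10 counts only in SRF-RELA library 3, with 11. TNNC1 thus passed the count filter mainly through the group in which it was high, which limits what this call can support. TTN, the giant titin of the sarcomere, ran from 25.3 to 71.3 CPM over all libraries with no call, so ACTA1 and ACTC1 were high in libraries where the other striated genes tested, TNNC1 apart, had no call against pMSCV. Against SRF, TNNT1, troponin T of slow muscle, passed in SRF-FOXO1 with the block only (log2 fold change 1.63; adjusted p = 0.0154, and 0.0521 without it). Of 27 nucleators and elongators 26 were tested. LMOD1, which this list shares, and DAAM1, a formin that elongates filaments (log2 fold change 1.13 in SRF-ICA1L; adjusted p = 0.0407), were the only ones that rose without the block. With it DIAPH3, also a formin, and DAAM1 rose in SRF-FOXO1 (0.98 and 0.61; adjusted p = 0.024 and 0.0289), and FMNL2, another formin, and WASL, an activator of the Arp2/3 complex, fell (-0.85 and -0.42; adjusted p = 0.012 and 0.0307). With the block 7.03% of all genes passed in SRF-FOXO1 and 4.66% in SRF-ICA1L. Of 12 monomer handling genes 0 passed in edgeR without the block, and 6 had p under 0.05 before adjustment in SRF-FOXO1, where 15.1% of all genes did. With it CFL2, a cofilin that severs filaments, and GSN, gelsolin, rose in SRF-FOXO1 (0.68 and 0.62; adjusted p = 0.00882 and 0.0343), and GSN rose in SRF-ICA1L (0.73; 0.0188). These were 2 and 1 of the 12, beside those 7.03% and 4.66% of all genes. Of 18 genes of actin folding and maturation 0 passed in edgeR against pMSCV, with or without the block. In SRF-FOXO1, where their median log2 fold change was 0.23, 5 of 18 had p under 0.05 before adjustment, beside that 15.1% of all genes. None of the 18 did in the other constructs, where 2.1% to 10.8% of all genes did. Of 14 actin relatives 9 were tested, and ACTBL2 alone passed, with the block in SRF-ICA1L (log2 fold change 2.47; adjusted p = 0.00302), where 4.66% of all genes did. It had 14, 135 and 31 counts there against 5, 16 and 8 in pMSCV.

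Across the 18 libraries the actin genes varied together to different degrees. Pearson's correlation of log2 CPM was highest for ACTA1 with ACTC1, at 0.96, and ACTB with ACTG1, at 0.89. It did not follow the classes further: ACTB with ACTA2 and with ACTG2 (0.85 each) and ACTC1 with ACTA2 and with ACTG2 (0.84 each) came before ACTA2 with ACTG2, at 0.83. It was lowest for ACTG1 with ACTA1, at 0.49. The libraries share groups and library numbers, so these are descriptions. Among 18543 other genes the 3 with the highest correlation included CAV2 (0.957) and TPD52L1 for ACTB, and were GIPC1 (0.913), ALDH4A1 and TPD52L1 for ACTG1, and FADS3 (0.930), LINC01629 and TXNDC11 for ACTA2. For ACTG2 they included CMKLR1 (0.965) and NRXN3. ACTC1 (0.965), ABCB10P4 and SPRR2C came first for ACTA1, and ACTA1, NUP210 (0.953) and ABCB10P4 for ACTC1. Levels of ABCB10P4, SPRR2C and NUP210 were low, with means of 0.244, 0.507 and 0.864 CPM over the 18 libraries. TPD52L1 appeared for both cytoplasmic actins, and the striated pair named each other.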

How the data were processed

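The authors deposited raw counts per gene for 18 libraries made with a stranded mRNA kit, per the labels' protocols. FastQC 0.11.8, Trimmomatic 0.39, HISAT2 and featureCounts of Subread 2.0.3 with GRCh38 are named in the submitters' processing notes. The annotation release, the strand setting and the treatment of reads with several matches are not given in the sources used here. Symbols were matched by Ensembl identifier. CPM are counts over the library's total, without a scaling factor.

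Tests used edgeR 4.0.16 in R 4.3.3 (quasi-likelihood F test, robust, TMM scaling) on all 18 libraries and the 18544 genes that passed filterByExpr with a minimum count of 10. Benjamini-Hochberg adjustment ran over all tested genes within each of 15 comparisons, with a threshold of 0.05. A gene that passed is called, and the code was tested on simulated data. Alternatives were the replicate number as a block, DESeq2 1.42.0, other scalings and filters, only the compared groups, each library left out, and the libraries numbered 2 left out, the last chosen after seeing the data.

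Whether the numbers pair the libraries was checked on deviations from the group means. Same-numbered libraries of different groups correlated over 0.1 in 44 of 45 pairs (median 0.375), against a median of -0.18 for other numbers. The exception was SRF with SRF-FOXO1 library 1, at 0.0875. The pairing thus comes from the data, not from the labels. Deviations within a group sum to 0, so the negative median for other numbers follows from the positive median for same numbers. A count of 0 was taken to allow up to 3 counts in a library, and intervals for pooled counts (95%) and floors cover counting error only.

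The members and lists were chosen with earlier results of these data known. Named genes were the 6 actins in every comparison, SRF, for each list the 2 called genes that rose most and the 2 that fell most in any construct, in the fit without and with the block, and the 3 genes most like each actin by Pearson correlation of log2 CPM (TMM, prior count 2), of which 1 for ACTB and 1 for ACTG2 are not reported here. FOS and TTN fall outside that rule and were named after their values were seen.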

Additional observations from a re-analysis of the deposited data

Results flagged for a closer look

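The effects of SRF-FOXO1 and SRF-PDGFRB differed by a test of the difference itself, without the replicate block, for 5 actin genes. The log2 difference, SRF-FOXO1 minus SRF-PDGFRB, was 0.82 for ACTB, 2.94 for ACTA2, 4.58 for ACTG2, 8.74 for ACTA1 and 9.34 for ACTC1. All 5 calls were lost when any 1 SRF-PDGFRB library, or SRF-FOXO1 library 2, was left out. ACTB had 5871 ± 973 CPM against 3543 ± 79.5 (SD, n = 3), and ACTG2 491 ± 97.1 against 22.1 ± 10.0. SRF reads stood at 151 to 211 CPM in SRF-FOXO1 and 160 to 337 CPM in SRF-PDGFRB. Whether the amount of fusion has a part in these differences was not tested.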

How the results depend on the processing

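Of the calls against pMSCV (8), against SRF (7) and between fusions (5), DESeq2's Wald test gave 13, 11 and 13, no count filter 2, 2 and 1, a minimum of 10 counts in every library, under which ACTA1 and ACTC1 could not be tested, 5, 3 and 3, and only the compared groups 0, 0 and 2. For those settings, and with single libraries left out, no share of all genes was counted. Without the libraries numbered 2 the calls were 2, 0 and 0, where 0.00538% to 0.264% of all genes passed in a comparison. With the replicate block on those 12 libraries they were 12, 7 (1 of them lower) and 12, where 0.0162% to 1.72% did. Leaving out each library in turn gave 0 to 8, 0 to 9 and 0 to 6. The replicate block on all libraries gave 10, 10 and 13, and in SRF-FOXO1 against SRF it added ACTG1 (0.42; adjusted p = 0.0292) and ACTA2 (1.74; 0.0361). It lost no call. Per kilobase the mean muscle actin share rose in every group. It moved to 1.04% in SRF-PDGFRB, 0.544% in pMSCV, 4.91% in SRF-ICA1L and 1.38% in SRF. In SRF-FOXO1 it moved from 7.49% to 9.33% and in SRF-RELA from 5.31% to 6.70%. Those moves were below 1 SD between libraries, which was widest in SRF-FOXO1 and SRF-RELA (2.50 and 3.10 percentage points) and does not measure this choice. The log2 fold changes that turned sign were none of them called. ACTB in SRF against pMSCV (0.01) became -0.02 with scaling by total count and ran from -0.20 to 0.14 without single libraries, and ACTG2 there from -0.48 to 1.48. ACTG1 in SRF-RELA against pMSCV (0.00) became 0.01 without the libraries numbered 2, 0.02 with the block added, and ran from -0.05 to 0.02. Against SRF, the changes in SRF-PDGFRB became -0.06 and -0.05 for ACTB (-0.05 to 0.28 without single libraries) and -0.01 and -0.01 for ACTG1, and ACTA2 in SRF-RELA became -0.02 without the libraries numbered 2. Of 342 values with 1 library left out, 257 kept their direction and their side of the threshold, 74 dropped out of the calls, 3 joined them and 8 changed sign. Only called results could drop out. These were the 8, 7 and 5 calls, each with 6 such fits, and most of those fits lost the call. The cause was not tested in any of these. At these depths a count of 0 in pMSCV allows up to 0.129 CPM, which limits what can be said of ACTC1 there.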
